A study of Mus musculus with 12 samples.

Results

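The proximal and the distal ascending aorta of wildtype mice were compared by RNA sequencing, with 1 library of each tissue from each of 3 mice. These 6 libraries were chosen by their titles from the 12 of the series, in which the other 6 hold the same tissues of 3 mice labelled Notch1+/-. The wildtype mice were of strain 129S6 and the others of the strain labelled Notch1.129S6+/-. All mice were 2 months old, and the labels name no treatment. The labels give neither the sex of the mice nor the line along which the aorta was divided. Of 21954 genes on the list analysed, 15470 had a level of at least 1 RPKM (reads divided by gene length in kilobases and by library size) in at least 3 of the 6 wildtype libraries and were tested. The libraries labelled Notch1+/- entered the fit for its shared estimate of the spread, and their own proximal and distal values are given where the genotypes are compared.

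The ascending aorta leads from the aortic valve to the arch. In mice, smooth muscle of its base comes partly from the second heart field, while cells from the cardiac neural crest contribute along its length. The base joins the fibrous valve ring, the valve leaflets and the heart muscle, and it carries transcription factors such as Gata4, Hand2 and Tbx20 that also act in the developing outflow tract. The media along the whole vessel is built of contractile smooth muscle between elastic lamellae.

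The 6 wildtype libraries held 26518332 to 36742096 total reads. Smooth muscle myosin Myh11 measured 1004, 1007 and 750.1 RPKM in the proximal libraries of mice 1, 2 and 3, against 849.6, 1129 and 1059 RPKM in the distal libraries of the same mice. The same order of mice is kept for all values by library below. The smooth muscle actin Acta2 measured 1625, 1834 and 1401 RPKM in proximal tissue, against 1425, 2303 and 2305 RPKM in distal tissue. The 2 tissues overlapped in both genes, so each library carried the defining transcripts of the aortic media. Transcripts of heart muscle were uneven within a location. Summed over the 27 genes of a heart muscle list, they reached 371, 754 and 2206 RPKM in proximal tissue, against 50.5, 456 and 90.4 RPKM in distal tissue. Distal library 2 stood above proximal library 1 in this sum, and the counts of calls, and the lists whose balance turns without that library, are given with and without it. Mitochondrially encoded genes took 34.6%, 36.4% and 43.7% of the summed RPKM in proximal libraries, against 36.5%, 34.2% and 35.6% in distal libraries. Notch1 itself measured 1.11, 1.19 and 1.56 RPKM in proximal tissue, against 1.12, 0.972 and 0.538 RPKM in distal tissue of wildtype mice.

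Location separated a small set of genes. Between proximal and distal tissue, 44 of 15470 genes (0.284%) differed at an adjusted p under 0.05 by limma with Benjamini-Hochberg adjustment, and these are the genes referred to as called. Among them, 21 genes (0.136% of those tested) were higher and 23 (0.149%) lower in proximal tissue. Matrix proteins of cartilage, growth factors and cardiac transcription factors led the higher genes. By fitted log2 change, copies of the alpha-1 antitrypsin gene, a pseudogene within the span of 1 copy and the carbonic anhydrase relative Car8 led the lower genes. At an unadjusted p under 0.05 there were 1290 genes. All 44 called genes had no overlap between the 3 proximal and the 3 distal values, and 40 differed at least 2-fold in the same direction in every mouse. Among 12168 genes with a mean of at least 2 RPKM in the higher tissue, 58 (0.477%) were at least 2-fold higher and 87 (0.715%) at least 2-fold lower in every mouse. Over all genes tested, the 3 proximal values lay above the 3 distal values in 2.46% and below them in 11.6%. Of the called genes, 6 reached 1 RPKM in proximal libraries alone and 5 in distal libraries alone, so their direction was set by the filter. The 5 were Hhip, Vipr2, Serpina1a, Gm8893 and Car8. Of all 15470 genes 10551 were fitted lower, which is the share to read list counts against. The median fitted log2 change of all genes was -0.13, and after median-of-ratios scaling it was 0.00. After that scaling the shares without overlap were 5.82% above and 5.73% below, and the calls numbered 27 higher and 18 lower. With RPKM rescaled to a constant sum without the mitochondrially encoded genes, they numbered 22 higher and 50 lower.

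The number of calls depended on single libraries. Without proximal library 1, 2 or 3 the calls numbered 15, 17 and 19, and without distal library 1, 2 or 3 they numbered 23, 44 and 13. Of the called genes, 10 were called in each of these 6 fits. They were 1500015O10Rik, Ptn, Spp1, Clec3a, Igfbp3, Prg4, Gata4, Thbs4 and Tcf21 among the higher genes and Serpina1b among the lower genes. Each of the remaining 34 missed the threshold in at least 1 of the 6 fits, at an adjusted p no higher than 0.211. Among the lower genes, Tshz2, Hoxa2, Gm26883, Cmah, Rbp4, Scara5, Slc6a7, Cpxm2, Gm23646 and Car8 were called in 0 of the 6. Without distal library 2, the distal library richest in heart muscle transcripts, 33 genes were called higher and 11 lower, and 29 of the 44 remained. Without both libraries of mouse 2, an alternative chosen after seeing the data, 20 genes were called higher and 0 lower, and 14 of the 44 remained. With the mouse as a block, which pairs the proximal and distal libraries of each animal, 24 genes were called and 22 of the 44 remained, 13 higher and 9 lower. A fit of the wildtype libraries alone called 5 genes, and 1 with the mouse as a block.

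Pleiotrophin and osteopontin, both secreted ligands of cell surface receptors, were among the genes with the largest differences. Ptn, the heparin-binding growth factor pleiotrophin (mm10 chromosome 6, 36714929 to 36810220, minus strand), measured 15.1, 8.83 and 19.6 RPKM in proximal tissue, against 0.644, 0.395 and 0.638 RPKM in distal tissue. Every proximal library lay far above every distal one, and the ratio within mice 1, 2 and 3 was 23.5, 22.4 and 30.7. The ratio of means was 26.0 (log2 3.77, SE 0.28, limma adjusted p = 7.01e-05). Worked back from the RPKM, these values rest on 1041, 529 and 1178 reads in proximal libraries and on 32, 25 and 38 reads in distal libraries. In whole tissue, fewer cells of a type and less RNA per cell cannot be told apart, here and in all results below.

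Spp1, which encodes the matrix phosphoprotein osteopontin, measured 12.2, 5.84 and 15.7 RPKM in proximal tissue, against 0.419, 0.757 and 0.350 RPKM in distal tissue. Its proximal mean was 22.1-fold the distal mean (log2 3.46, SE 0.30, adjusted p = 0.000322). A gene model on the same strand shares 18.8% of its exon bases. Igfbp3, a binding protein that holds insulin-like growth factors, measured 5.27, 6.25 and 12.5 RPKM in proximal tissue, against 0.530, 0.867 and 0.423 RPKM in distal tissue. Its ratio was 13.2 (adjusted p = 0.00181), and within mice 1, 2 and 3 it was 9.94, 7.20 and 29.5. For both genes the lowest proximal library was several times the highest distal one.

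Ptn, Spp1 and Igfbp3 reached 1 RPKM in proximal libraries alone, so they could enter the test only as higher genes. These 3 genes were the called ones among 28 of 35 growth factor and binding protein genes that were tested, with 12 fitted higher and 16 lower. The list's median log2 change was -0.06, against -0.13 over all genes, and it turned to 0.08 under median-of-ratios scaling. Thbs1, a matrix protein that binds TGF-beta, measured 6.84, 4.47 and 13.9 RPKM in proximal tissue, against 1.24, 3.21 and 0.598 RPKM in distal tissue (log2 2.07, adjusted p = 0.0929). It was called without distal library 2 (adjusted p = 0.0295). Ptprz1, a receptor for pleiotrophin, ran the other way from its ligand at 15.4, 14.3 and 13.0 RPKM in proximal tissue, against 22.8, 26.0 and 35.8 RPKM in distal tissue. Its 2 groups did not overlap, and its log2 change of -0.94 missed the threshold (adjusted p = 0.0611). With RPKM rescaled to a constant sum without mitochondrially encoded genes it was called (adjusted p = 0.0424).

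**Figure D1:**
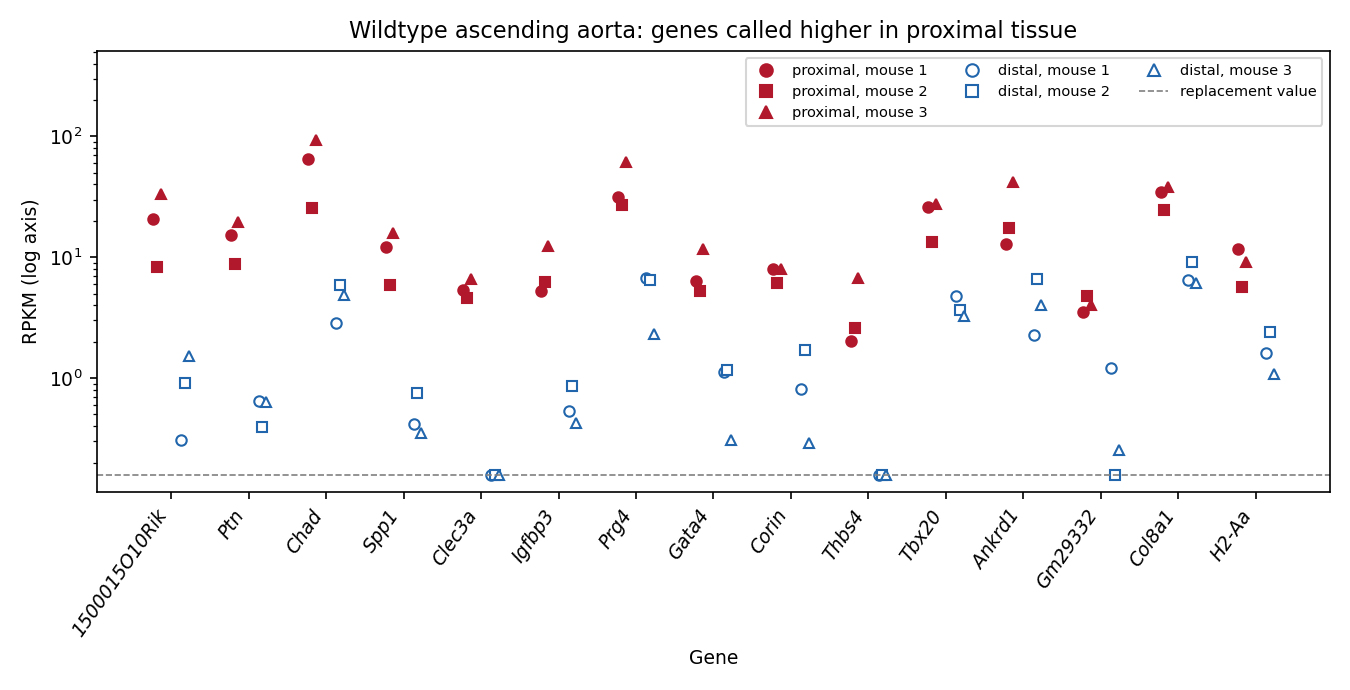
RPKM on a log axis of the 15 genes with the largest fitted log2 change among those called higher in proximal tissue, for each wildtype library (filled red, proximal; open blue, distal; marker shape, mouse). Clec3a and Thbs4 lie at the replacement value of 0.158 RPKM in all 3 distal libraries, and no gene has overlapping groups.

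Matrix genes of cartilage, tendon and valve were 1 of the groups with the most higher genes. Of 33 such genes, 17 were tested, and 4 rose (Clec3a, Prg4, Chad and Thbs4) while 0 fell. Over all genes tested, 0.136% were called higher and 0.149% lower. Clec3a and Thbs4 reached 1 RPKM in proximal libraries alone, so they could enter the test only as higher genes. The list's median log2 change was 0.44, and 12 of the 17 were fitted higher. In 8 of the 17 the proximal values all lay above the distal values, and in 0 below, against 2.46% and 11.6% of all genes tested. Clec3a and Thbs4 are among the 8. Without distal library 2, 9 were fitted higher and 8 lower, with a median of 0.48. Chad, the cartilage matrix protein chondroadherin, measured 65.0, 25.6 and 92.9 RPKM in proximal tissue, against 2.88, 5.85 and 4.87 RPKM in distal tissue. Proximal library 2 was the lowest of the proximal libraries and still above all distal ones. The ratio of means was 13.5 (log2 3.48, SE 0.51, adjusted p = 0.0138). The call was lost without proximal library 1 or 3 or distal library 1 or 3, with an adjusted p of at most 0.0716.

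Clec3a, a C-type lectin of cartilage (mm10 chromosome 8, 114418086 to 114425846, plus strand), measured 5.33, 4.56 and 6.67 RPKM in proximal tissue. In all 3 distal libraries it lay at 0.158 RPKM, the value that the authors put in place of levels below detection. It was therefore at least 35.0-fold higher (adjusted p = 2.42e-05), and its SE of 0.20 does not measure the spread of its distal level. The proximal values stand for 63, 47 and 69 reads. Thbs4, a thrombospondin of tendon and muscle matrix, had the same distal pattern and measured 2.02, 2.61 and 6.70 RPKM in proximal tissue. It was at least 23.9-fold higher (adjusted p = 0.00892). Both genes passed the filter through proximal tissue alone.

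Prg4, which encodes the joint lubricant lubricin, measured 31.5, 27.0 and 61.9 RPKM in proximal tissue, against 6.76, 6.45 and 2.33 RPKM in distal tissue. The ratio of means was 7.74 (adjusted p = 0.00969, and 0.0554 with the mouse as a block). Within mouse 3 the ratio was 26.6, against 4.66 and 4.18 within mice 1 and 2. Sox9, the transcription factor that drives cartilage genes, measured 4.62, 2.36 and 6.02 RPKM in proximal tissue, against 0.568, 1.14 and 0.279 RPKM in distal tissue. It was separated in every library (log2 2.04) and not called (adjusted p = 0.0611), but it was called under median-of-ratios scaling (adjusted p = 0.0366) and quantile normalization. Comp, the cartilage oligomeric matrix protein, measured 8.28, 3.83 and 14.6 RPKM in proximal tissue, against 0.228, 2.37 and 2.07 RPKM in distal tissue (log2 2.25, adjusted p = 0.147).

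Transcription factors of the heart and outflow tract gave as many higher genes. Of 21 on the list 12 were tested, and 4 rose (Gata4, Tbx20, Tcf21 and Hand2) while 0 fell. Over all genes tested, 0.136% were called higher and 0.149% lower. The proximal values all lay above the distal values in 5 of the 12 and below them in 5. These shares were 2.46% and 11.6% over all genes tested. Foxf1, among the 5 below, passed the filter through distal tissue alone. The median of the 12 was -0.17, with 7 of the 12 fitted lower. Gata4, a zinc finger factor of heart development (mm10 chromosome 14, 63198922 to 63271692, minus strand), measured 6.41, 5.27 and 11.7 RPKM in proximal tissue, against 1.11, 1.17 and 0.310 RPKM in distal tissue. It was 9.01-fold higher (log2 2.60, SE 0.34, adjusted p = 0.00892, and 0.0580 with the mouse as a block). Distal library 3 was the lowest, and the ratio within mouse 3 was 37.6, against 5.75 and 4.52 within mice 1 and 2.

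Tbx20, a T-box factor of the heart and the valves, measured 26.2, 13.3 and 27.4 RPKM in proximal tissue, against 4.80, 3.63 and 3.25 RPKM in distal tissue. It was 5.73-fold higher (adjusted p = 0.00969). The call was lost without proximal library 1 or distal library 3 (adjusted p of at most 0.0515). Tcf21, a basic helix-loop-helix factor of epicardium-derived fibroblasts, measured 11.2, 7.41 and 10.4 RPKM in proximal tissue, against 1.52, 2.88 and 1.84 RPKM in distal tissue. It was 4.64-fold higher (adjusted p = 0.00892).

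Hand2, a basic helix-loop-helix factor of the second heart field, showed the smallest fitted difference among the called higher genes and little spread within a tissue. It measured 22.3, 21.8 and 21.4 RPKM in proximal tissue, against 10.9, 12.0 and 9.10 RPKM in distal tissue. The ratio was 2.05 (adjusted p = 0.0206, and 0.0893 with the mouse as a block), and 5 of the 6 fits without 1 library lost the call (adjusted p of at most 0.128). With RPKM rescaled to a constant sum neither Hand2 (adjusted p = 0.164) nor the transcript next described was called. The overlapping transcript Gm28063, on the opposite strand, measured 71.2, 71.8 and 64.7 RPKM in proximal tissue, against 31.7, 40.4 and 30.0 RPKM in distal tissue (adjusted p = 0.0206, and 0.0703 with the block). The library kit does not mark strand, so reads in bases that Hand2 and Gm28063 share cannot be told apart. On the other side, Foxc2, a forkhead factor of mesenchyme, measured 5.24, 4.12 and 3.33 RPKM in proximal tissue, against 7.53, 7.25 and 7.15 RPKM in distal tissue (log2 -0.74, adjusted p = 0.335). Tbx18, a factor of mural and epicardial cells, measured 5.18, 3.57 and 2.80 RPKM in proximal tissue, against 5.49, 6.74 and 6.35 RPKM in distal tissue (adjusted p = 0.499).

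Heart muscle also expresses several of these factors, and its marker genes were fitted higher in proximal tissue. Of the 27 heart muscle genes, 23 were tested, 23 were fitted higher and 1 was called (Ankrd1). In 8 the proximal values all lay above the distal values, against 2.46% of all genes tested. The list's median log2 change was 2.55, and it ranged from 2.40 to 2.70 over the other scalings. It was 3.24 without distal library 2 and 3.37 without mouse 2. The cardiac myosin heavy chain gene Myh6 measured 63.2, 179 and 354 RPKM in proximal tissue, against 2.12, 119 and 5.30 RPKM in distal tissue. Distal library 2 held more than proximal library 1, and the log2 change of 3.71 had an SE of 1.26 (adjusted p = 0.395). The part of heart muscle in the differences of Gata4, Tbx20 and the other higher genes was not tested.

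Ankrd1, a titin-binding protein of stretched muscle, measured 13.0, 17.5 and 42.0 RPKM in proximal tissue, against 2.27, 6.58 and 4.05 RPKM in distal tissue. It was 5.62-fold higher (adjusted p = 0.0406), and 5 of the 6 fits without 1 library lost the call (adjusted p of at most 0.148). It was not called either when RPKM was rescaled to a constant sum (adjusted p = 0.0571) or with no filter on low values. Nppa, the atrial natriuretic peptide gene, measured 9.18, 2.39 and 33.9 RPKM in proximal tissue, against 0.479, 0.376 and 1.73 RPKM in distal tissue. Proximal library 3 stood far above the others, and the difference was not called (log2 2.99, SE 0.95, adjusted p = 0.340). Corin, a membrane protease that cleaves the precursor of that peptide, did rise, at 7.96, 6.09 and 8.05 RPKM in proximal tissue, against 0.819, 1.70 and 0.288 RPKM in distal tissue. Its ratio was 7.88 (adjusted p = 0.00969), and the call was lost without proximal library 1 (adjusted p = 0.0514). Without distal library 2 the heart muscle genes Lmod2 (adjusted p = 0.0182), Ttn (0.0340) and Myh7 (0.0424) were called higher as well.

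Promoters of the higher genes were searched for the core motifs of these factors. The RefSeq table for GRCm38.p6, the assembly behind mm10, gave a promoter for 31 of the 44 called genes, 14 higher and 17 lower. In the 250 bases before the start site, on both strands, the GATA motif AGATAA was present in 3 of the 14 (Ankrd1, Hand2 and Tcf21) and in 1 of the 17 (Cmah). It was present in 11.4% of 27025 genes. CATCTG, an E-box bound by Hand2, was present in 3 of the 14 (Corin, H2-Aa and Hand2) and 0 of the 17, against 16.3% of all genes. TAATTA, a homeodomain core, was present in 2 of the 14 (Hand2 and Spp1) and 0 of the 17, against 5.65% of all genes. The T-box motif AGGTGTNA was found in 0 of either group and in 3.12% of all genes. A match describes letters and is no evidence of binding. The GATA motif is not particular to Gata4. Gata6, another GATA factor, averaged 18.7 RPKM in proximal and 22.5 RPKM in distal tissue and was not called (log2 -0.26, limma adjusted p = 0.729). Which factor, if any, acts on promoters with the motif was not tested. The 3 promoters with AGATAA are shown because they belong to higher genes and hold this motif. They run 5′ to 3′ on the gene's strand, end at the base before the start site, and have the motifs found in capitals. On the opposite strand AGATAA reads TTATCT, and in Hand2 that run overlaps TAATTA. They lie at chr8:57320733-57320982 (plus strand), chr10:22820144-22820393 (minus strand) and chr19:36119845-36120094 (minus strand).
Hand2: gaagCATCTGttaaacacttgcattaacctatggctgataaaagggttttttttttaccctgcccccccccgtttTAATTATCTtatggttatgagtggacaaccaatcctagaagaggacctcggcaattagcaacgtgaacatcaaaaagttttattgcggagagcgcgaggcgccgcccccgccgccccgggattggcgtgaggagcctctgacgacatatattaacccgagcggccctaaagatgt
Tcf21: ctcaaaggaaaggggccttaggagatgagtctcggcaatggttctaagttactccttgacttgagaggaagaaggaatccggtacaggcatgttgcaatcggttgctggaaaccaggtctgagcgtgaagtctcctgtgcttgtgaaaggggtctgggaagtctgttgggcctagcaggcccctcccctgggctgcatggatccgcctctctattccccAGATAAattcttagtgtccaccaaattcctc
Ankrd1: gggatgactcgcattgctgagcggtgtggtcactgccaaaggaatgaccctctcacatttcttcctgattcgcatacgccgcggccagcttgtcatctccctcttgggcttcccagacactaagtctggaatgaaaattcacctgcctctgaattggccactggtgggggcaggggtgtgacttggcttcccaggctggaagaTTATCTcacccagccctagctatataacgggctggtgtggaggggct

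Other higher genes included secreted, structural and immune genes. 1500015O10Rik, which RefSeq names Ecrg4 and which encodes the secreted peptide precursor augurin, measured 20.7, 8.26 and 33.4 RPKM in proximal tissue, against 0.306, 0.903 and 1.53 RPKM in distal tissue. It had the largest fitted log2 change of the called genes, 3.81 (SE 0.47, ratio 22.7, adjusted p = 0.00765). Distal library 1 held 0.306 RPKM, and the ratio within mice 1, 2 and 3 was 67.6, 9.16 and 21.8. Col8a1, a short-chain collagen of vessel walls, was the called gene among 20 tested collagen chains. It measured 34.8, 24.4 and 38.3 RPKM in proximal tissue, against 6.49, 9.09 and 6.07 RPKM in distal tissue (4.50-fold, adjusted p = 0.0131). The call was lost without proximal library 1 or 3 or distal library 1 or 3 (adjusted p of at most 0.0756). The collagen list otherwise leaned lower, with 18 of 20 fitted lower and a median log2 change of -0.45.

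Des, the intermediate filament desmin of muscle cells, measured 66.1, 78.4 and 62.1 RPKM in proximal tissue, against 21.2, 32.8 and 16.8 RPKM in distal tissue (2.91-fold, adjusted p = 0.0187). It was the called gene among 22 contractile smooth muscle genes, of which 10 were fitted higher and 12 lower, with a median log2 change of -0.03, which turned to 0.12 under median-of-ratios scaling. Heart muscle also makes desmin, and 5 of the 6 fits without 1 library lost its call (adjusted p of at most 0.0889). It was not called when RPKM was rescaled to a constant sum.

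H2-Aa, an antigen-presenting MHC class II chain, measured 11.7, 5.63 and 9.12 RPKM in proximal tissue, against 1.62, 2.40 and 1.08 RPKM in distal tissue (5.18-fold, adjusted p = 0.0138, and 0.0642 with the mouse as a block). H2-Aa lost the call in 4 of the 6 fits without 1 library (adjusted p of at most 0.0786). The 4 tested genes of 7 on the class II list were all fitted higher, with a median log2 change of 2.04. In all 4 the proximal values lay above the distal values, against 2.46% of all genes tested. Their invariant chain gene Cd74 measured 62.4, 38.3 and 44.0 RPKM in proximal tissue, against 5.98, 17.7 and 5.35 RPKM in distal tissue (log2 2.43, adjusted p = 0.0611). It was called under median-of-ratios scaling (adjusted p = 0.0254) and without distal library 2 (0.0218). Summed over the 6 class II genes on the list analysed, they reached 98.8, 57.3 and 81.2 RPKM in proximal tissue, against 11.0, 30.3 and 11.2 RPKM in distal tissue. The macrophage list overlapped between tissues in its sum, at 72.5, 59.7 and 92.2 RPKM in proximal tissue, against 50.1, 71.4 and 20.2 RPKM in distal tissue. All 7 of its tested genes were fitted higher and 0 were called. The part of macrophages in the class II difference was not tested.

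Prune2 was 2.68-fold higher (adjusted p = 0.0469, and 0.110 with the block), with proximal values of 5.46, 5.39 and 5.36 RPKM, against 1.61, 2.78 and 1.66 RPKM in distal tissue. Transcripts that overlap other genes are uncertain. Gm29332, a pseudogene that lies wholly opposite an exon of Nbeal1, rests on 16, 19 and 16 reads in proximal libraries and at most 4 reads in any distal library (adjusted p = 0.0368, and 0.126 with the block).

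**Figure D2:**
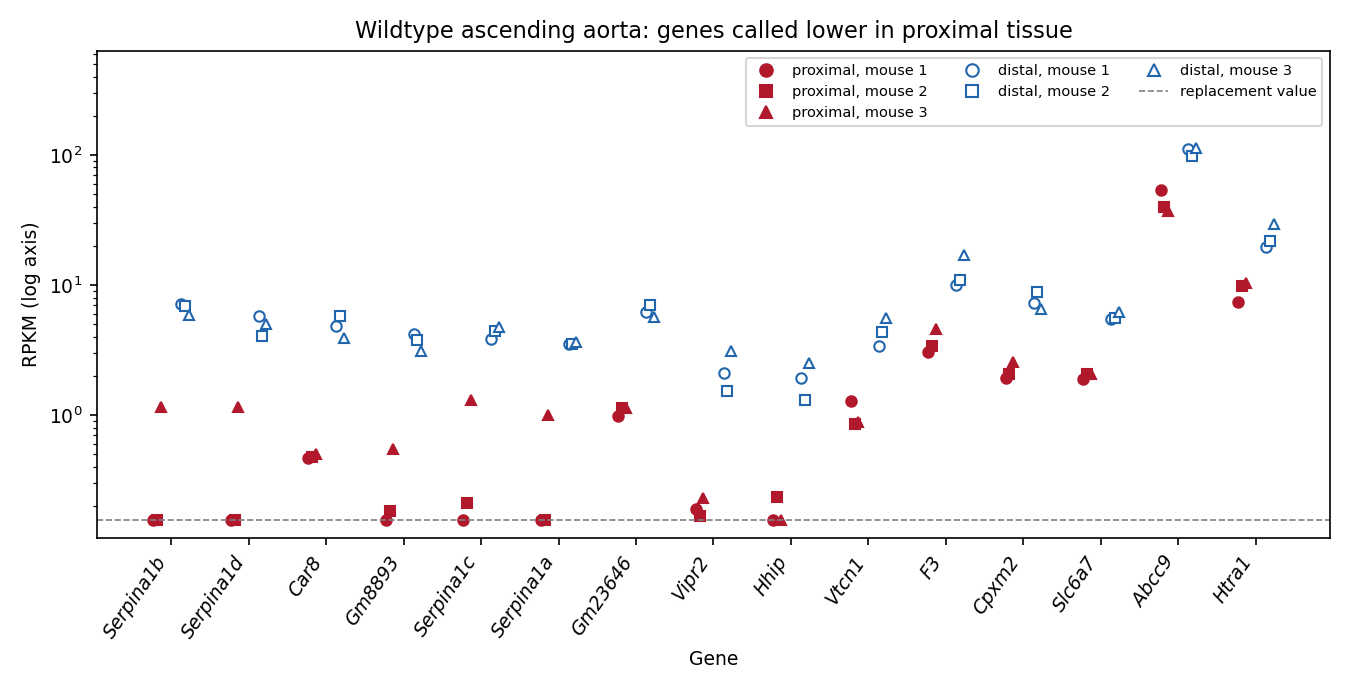
RPKM on a log axis of the 15 genes with the largest fitted log2 change among those called lower in proximal tissue, for each wildtype library (filled red, proximal; open blue, distal; marker shape, mouse). The Serpina1 copies lie at or near the replacement value of 0.158 RPKM in proximal libraries 1 and 2 and higher in proximal library 3.

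Alpha-1 antitrypsin, the main inhibitor of neutrophil elastase, is encoded by the Serpina1 genes, which include 4 of the lower genes. The mouse carries several near-identical copies side by side on chromosome 12. All 5 on the list were tested, and 4 fell (Serpina1a, Serpina1b, Serpina1c and Serpina1d). Each reached 1 RPKM in every distal library and in at most 1 proximal library, so the filter itself favoured this direction. Serpina1b measured 0.158, 0.158 and 1.16 RPKM in proximal tissue, against 7.09, 6.92 and 5.87 RPKM in distal tissue. It was at least 13.5-fold lower (log2 -2.99, SE 0.39, adjusted p = 0.00892). Proximal library 3 was the one proximal library with a level above the replacement value. Serpina1d measured 0.158, 0.158 and 1.15 RPKM in proximal tissue, against 5.80, 4.09 and 5.04 RPKM in distal tissue, at least 10.2-fold lower (adjusted p = 0.0206). Serpina1a and Serpina1c were at least 8.16-fold and 7.85-fold lower (adjusted p = 0.0300 and 0.0300). Serpina1e measured 0.158, 0.158 and 0.707 RPKM in proximal tissue, against 1.71, 2.05 and 2.57 RPKM in distal tissue, and was not called (log2 -1.68, adjusted p = 0.248).

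These copies may share reads. The 5 transcripts in the GENCODE M21 annotation are 93.8% to 96.8% identical over the 10 pairs, and the rule by which reads were split among them is not given in the labels. The pseudogene Gm8893, which lies within the span of Serpina1b, measured 0.158, 0.185 and 0.552 RPKM in proximal tissue, against 4.17, 3.76 and 3.11 RPKM in distal tissue (adjusted p = 0.0104). Gm8893 passed the filter through distal tissue alone. With the mouse as a block the 4 copies remained called. The calls of Serpina1a, Serpina1c and Serpina1d were lost in 5, 5 and 4 of the 6 fits without 1 library (adjusted p of at most 0.146). Serpina1a and Serpina1c were also not called under median-of-ratios scaling (adjusted p = 0.0513 and 0.0542). Without both libraries of mouse 2 none of the 4 was called. The RefSeq promoters of the 4 called copies are shown because the copies moved together and are alike in sequence. Each line is the 100 bases before the start site on the minus strand of GRCm38.p6, with the longest run shared by all 4, of 55 bases, in capitals. The windows lie at chr12:103863620-103863719, chr12:103738190-103738289, chr12:103904951-103905050 and chr12:103773634-103773733.
Serpina1a: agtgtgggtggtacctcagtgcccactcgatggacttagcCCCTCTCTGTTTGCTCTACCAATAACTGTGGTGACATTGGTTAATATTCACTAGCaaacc
Serpina1b: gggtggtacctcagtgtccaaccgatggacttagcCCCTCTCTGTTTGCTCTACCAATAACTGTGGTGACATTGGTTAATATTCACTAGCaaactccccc
Serpina1c: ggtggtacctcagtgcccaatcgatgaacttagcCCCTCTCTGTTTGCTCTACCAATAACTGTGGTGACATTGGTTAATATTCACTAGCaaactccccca
Serpina1d: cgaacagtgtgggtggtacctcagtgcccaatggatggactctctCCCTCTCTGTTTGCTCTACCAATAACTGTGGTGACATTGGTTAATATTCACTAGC

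Receptors, channels and signalling genes made up much of the rest. Vipr2, a receptor for vasoactive intestinal peptide that relaxes smooth muscle, measured 0.190, 0.167 and 0.230 RPKM in proximal tissue, against 2.12, 1.54 and 3.11 RPKM in distal tissue. It was 11.5-fold lower (log2 -1.95, SE 0.29, adjusted p = 0.0138, and 0.0688 with the mouse as a block). As Vipr2 reached 1 RPKM in distal libraries alone, the filter set this direction. Proximal values stand for 17, 13 and 18 reads, and 5 of the 6 fits without 1 library lost the call (adjusted p of at most 0.0866). Abcc9, the sulfonylurea receptor subunit of the vascular ATP-sensitive potassium channel, was the most abundant called lower gene, at 53.7, 40.0 and 36.7 RPKM in proximal tissue, against 111, 97.7 and 114 RPKM in distal tissue. It was 2.47-fold lower (log2 -1.31, SE 0.18, adjusted p = 0.0104), and the fold within mice 1, 2 and 3 was 2.07, 2.44 and 3.09. The call was lost without proximal library 2 or 3 or distal library 3 (adjusted p of at most 0.0644). Kcnj8, the pore subunit of the same channel, measured 2.59, 1.94 and 3.14 RPKM in proximal tissue, against 4.15, 4.83 and 7.06 RPKM in distal tissue (log2 -0.93, adjusted p = 0.248).

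Among 16 tested vasoactive receptor and peptide genes, Corin rose and Vipr2 fell. Fitted lower were 12 of the 16, 9 without distal library 2 and 8 without mouse 2. Vipr2 and Htr2a passed the filter through distal tissue alone. Edn1, the constrictor peptide endothelin, measured 2.94, 2.81 and 1.78 RPKM in proximal tissue, against 5.07, 7.64 and 5.85 RPKM in distal tissue (log2 -1.16, adjusted p = 0.0603). It was called when RPKM was rescaled to a constant sum without mitochondrially encoded genes (adjusted p = 0.0316). The natriuretic peptide receptor Npr1 measured 5.75, 9.25 and 4.99 RPKM in proximal tissue, against 13.2, 14.5 and 13.4 RPKM in distal tissue (adjusted p = 0.167). Htr2a, a serotonin receptor of smooth muscle, measured 0.454, 0.347 and 0.846 RPKM in proximal tissue, against 1.77, 2.21 and 4.71 RPKM in distal tissue (adjusted p = 0.0855).

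Hhip, a decoy receptor that binds hedgehog ligands, measured 0.158, 0.234 and 0.158 RPKM in proximal tissue, against 1.95, 1.31 and 2.51 RPKM in distal tissue. It was at least 10.5-fold lower (adjusted p = 0.0206, and 0.128 with the mouse as a block), and 5 of the 6 fits without 1 library lost the call. Car8, a carbonic anhydrase relative without enzyme activity, measured 0.467, 0.476 and 0.504 RPKM in proximal tissue, against 4.88, 5.76 and 3.92 RPKM in distal tissue. It was 10.1-fold lower with little spread in proximal tissue (log2 -2.43, SE 0.37, adjusted p = 0.0174). It was called with the block and not in any of the 6 fits without 1 library (adjusted p of at most 0.0737). The filter set the direction of Hhip and Car8, which reached 1 RPKM in distal libraries alone. F3, the tissue factor that starts coagulation, measured 3.08, 3.38 and 4.59 RPKM in proximal tissue, against 10.1, 10.9 and 16.9 RPKM in distal tissue (3.42-fold lower, adjusted p = 0.0187). It was the called gene among 12 tested haemostasis genes, and its call was lost in 3 of the 6 fits (adjusted p of at most 0.0896). Serpine2, a thrombin inhibitor of the vessel wall, measured 14.2, 14.2 and 12.8 RPKM in proximal tissue, against 21.3, 25.3 and 35.7 RPKM in distal tissue (adjusted p = 0.134).

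Hox genes, which mark position along the body axis, were low in both tissues. Of 18 genes in paralog groups 1 to 6, 8 were on the list analysed and 5 passed the filter. Hoxa2 was the called one, at 4.22, 2.81 and 3.48 RPKM in proximal tissue, against 8.25, 7.64 and 8.51 RPKM in distal tissue (2.32-fold lower, adjusted p = 0.0450, and 0.0839 with the block). It was called in 0 of the 6 fits without 1 library (adjusted p of at most 0.182) and under 2 of 4 other scalings. A neighbouring transcript on the same strand shares some of its exon bases. Hoxa5 lay at 0.158 RPKM in all proximal libraries, against 1.69, 1.27 and 1.20 RPKM in distal tissue. It passed the filter through distal tissue alone, was at least 8.79-fold lower and missed the threshold (adjusted p = 0.0650). Hoxb4 measured 0.311, 0.514 and 1.046 RPKM in proximal tissue, against 2.26, 2.18 and 2.58 RPKM in distal tissue (log2 -1.39, adjusted p = 0.0640). When RPKM was rescaled to a constant sum without mitochondrially encoded genes, Hoxa5 (adjusted p = 0.0454) and Hoxb4 (0.0470) were called too, and Hoxb4 also with the mitochondrial genes kept in the sum (0.0394). Dlx5, a homeodomain factor of the neural crest, measured 0.795, 0.583 and 0.158 RPKM in proximal tissue, against 2.63, 5.32 and 1.78 RPKM in distal tissue (adjusted p = 0.113).

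The other called lower genes were 2.34-fold to 4.38-fold lower, apart from Gm23646. Vtcn1, an inhibitory ligand of T cells, measured 1.30, 0.853 and 0.893 RPKM in proximal tissue, against 3.37, 4.37 and 5.58 RPKM in distal tissue (adjusted p = 0.0138). Cpxm2, a carboxypeptidase relative, measured 1.93, 2.06 and 2.55 RPKM in proximal tissue, against 7.31, 8.85 and 6.55 RPKM in distal tissue (adjusted p = 0.0284). Slc6a7, a proline transporter, measured 1.88, 2.08 and 2.07 RPKM in proximal tissue, against 5.48, 5.62 and 6.19 RPKM in distal tissue (adjusted p = 0.0202). As in all called genes, the groups of these 3 did not overlap. Htra1, a secreted serine protease, measured 7.44, 9.88 and 10.3 RPKM in proximal tissue, against 19.4, 22.0 and 29.6 RPKM in distal tissue (adjusted p = 0.0206).

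Scara5, a scavenger receptor, and Rbp4, the retinol carrier, were 2.94-fold and 2.44-fold lower. The focal adhesion protein Tes was 2.64-fold lower, the sialic acid hydroxylase Cmah 2.69-fold and the nuclear protein Aff3 2.37-fold. The transcription factor Tshz2 was 2.34-fold lower. The transcript Gm26883 was 2.43-fold lower and lies opposite Tshz2, with 99.2% of its exon bases shared, so reads in those bases cannot be told apart. With the mouse as a block none of the 11 called lower genes from Vtcn1 to Gm26883 in these 2 paragraphs remained called, at an adjusted p of 0.0642 to 0.137. The small RNA gene Gm23646 was 5.79-fold lower, but on 2, 2 and 2 reads in proximal libraries and 9, 13 and 10 reads in distal libraries.

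**Figure D3:**
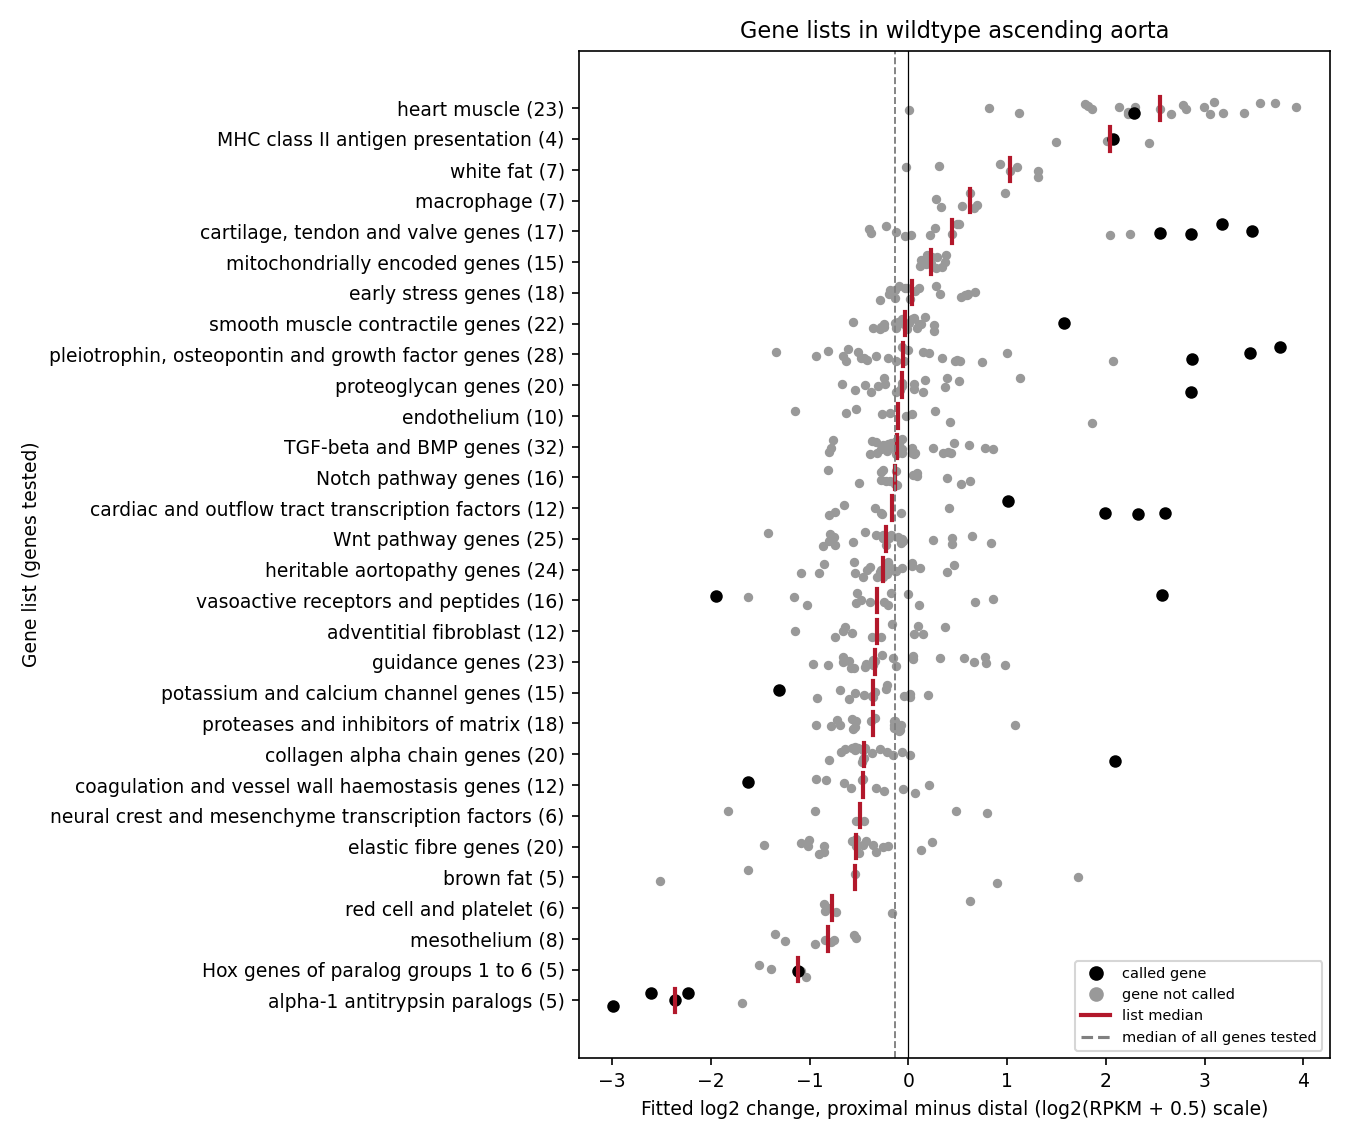
Fitted log2 change of each tested gene (proximal minus distal, log2(RPKM + 0.5) scale) in each list with at least 4 tested genes, lists ordered by their median (red line). The heart muscle list has a median of 2.55, while the dashed line marks the -0.13 of all genes, and lists of few genes at low levels can lean to the side through which their genes passed the filter.

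Structural genes of the aortic wall were examined as lists. Of the 20 tested elastic fibre genes of 23, 0 were called, a count that the 0.284% called over all genes would also give. Fitted lower were 18 of the 20, with a median log2 change of -0.53. In 8 of the 20 the proximal values all lay below the distal values, against 11.6% of all genes tested. Efemp1, a fibulin, measured 8.09, 16.6 and 13.4 RPKM in proximal tissue, against 44.5, 35.2 and 26.3 RPKM in distal tissue (log2 -1.46, adjusted p = 0.153). Mfap5, a microfibril glycoprotein, measured 24.1, 24.7 and 19.7 RPKM in proximal tissue, against 38.9, 62.8 and 47.4 RPKM in distal tissue (log2 -1.08, adjusted p = 0.0642). It was called lower under median-of-ratios scaling (adjusted p = 0.0428), quantile normalization (0.0283) and a constant sum without mitochondrially encoded genes (0.0336). Elastin itself, Eln, measured 50.9, 79.3 and 142.6 RPKM in proximal tissue, against 61.3, 173 and 356 RPKM in distal tissue, and its groups overlapped (log2 -0.90, SE 0.54).

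Of 18 tested matrix proteases and inhibitors, 17 were fitted lower. Calls numbered 0, which the 0.284% called over all genes would also give in a list of this size. Timp2, a metalloproteinase inhibitor, measured 81.7, 70.3 and 76.9 RPKM in proximal tissue, against 126, 124 and 119.7 RPKM in distal tissue (log2 -0.69, adjusted p = 0.0997), and it was called lower under quantile normalization (0.0472). Among 20 tested proteoglycan genes Prg4 was the called one. Sdc3, a cell surface proteoglycan, measured 5.65, 5.65 and 7.07 RPKM in proximal tissue, against 1.80, 3.29 and 2.61 RPKM in distal tissue (adjusted p = 0.0823), and it was called higher under median-of-ratios scaling (0.0212).

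The Notch, TGF-beta and BMP, and Wnt lists held 0 called genes. With 0.284% of all genes called, a count of 0 in lists of this size does not set them apart. Of 16 tested Notch pathway genes, 6 were fitted higher and 10 lower, with a median log2 change of -0.13. Notch3, a receptor of mural cells, measured 3.32, 2.97 and 3.89 RPKM in proximal tissue, against 2.04, 1.72 and 2.31 RPKM in distal tissue (log2 0.62, adjusted p = 0.461). Of 32 tested TGF-beta and BMP genes, 12 were fitted higher and 20 lower (median -0.11, and 0.03 under median-of-ratios scaling). Bmp2 measured 2.14, 1.40 and 2.27 RPKM in proximal tissue, against 0.544, 1.07 and 0.940 RPKM in distal tissue (adjusted p = 0.343). Bmp4, a relative of that ligand, measured 17.2, 14.8 and 10.1 RPKM in proximal tissue, against 23.1, 30.8 and 20.3 RPKM in distal tissue (adjusted p = 0.521). The median log2 change of 25 tested Wnt genes was -0.23, and -0.09 under median-of-ratios scaling. That of 24 heritable aortopathy genes was -0.26, and -0.10 under that scaling.

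Of 23 tested guidance genes 15 were fitted lower, near the share of all genes, with a median log2 change of -0.34 against -0.13 over all genes. Under median-of-ratios scaling 14 of the 23 were fitted lower, against 7648 of all 15470 genes. In 8 the proximal values all lay below the distal values and in 4 above, against 11.6% and 2.46% of all genes. Slit3, a secreted guidance cue, measured 18.9, 22.0 and 26.0 RPKM in proximal tissue, against 39.2, 45.1 and 47.0 RPKM in distal tissue (log2 -0.96, adjusted p = 0.0650). Sema3c, a semaphorin that guides neural crest cells into the outflow tract, measured 9.77, 8.51 and 9.07 RPKM in proximal tissue, against 16.9, 15.8 and 16.5 RPKM in distal tissue (log2 -0.82, adjusted p = 0.0642). Both were separated in every library, and among genes with at least 5 RPKM in at least 3 wildtype libraries they were called (adjusted p = 0.0490 and 0.0417).

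Genes at high levels were called at about the share of all genes (0.284%). Of 721 tested genes with a mean of at least 50 RPKM, 7 had all proximal values above and 56 all below the distal values. Over all genes tested these shares were 2.46% and 11.6%. Of the 721 genes 2 were called, Gm28063 and Abcc9. Pln, the calcium pump regulator phospholamban and a member of the heart muscle list, had the largest fitted change of the 7 higher ones, at 42.6, 59.6 and 153 RPKM in proximal tissue, against 5.57, 32.4 and 9.43 RPKM in distal tissue (log2 2.55, adjusted p = 0.212). Sod3, the extracellular superoxide dismutase of the vessel wall, measured 129, 148 and 133 RPKM in proximal tissue, against 201, 269.9 and 283 RPKM in distal tissue (log2 -0.86, adjusted p = 0.0611). Mylk4, a myosin light chain kinase family member, measured 153, 137 and 94.4 RPKM in proximal tissue, against 222, 237 and 223 RPKM in distal tissue (log2 -0.86, adjusted p = 0.267). The small heat shock proteins Hspb6 and Cryab showed log2 changes of 0.29 and 0.35, with adjusted p of 0.646 and 0.6496.

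Markers of other tissues around the aorta varied from library to library. White fat genes summed to 41.9, 44.6 and 240.1 RPKM in proximal tissue, against 27.7, 232 and 9.83 RPKM in distal tissue, so proximal library 3 and distal library 2 held the most. Mesothelial genes summed to 19.7, 41.4 and 10.7 RPKM in proximal tissue, against 53.5, 41.2 and 32.3 RPKM in distal tissue, with 8 of 8 tested genes fitted lower and 0 called. Endothelial genes summed to 52.6, 57.9 and 73.2 RPKM in proximal tissue, against 85.6, 104 and 92.2 RPKM in distal tissue. Of 10 tested endothelial genes 4 were fitted higher and 6 lower, and without distal library 2 this turned to 6 higher and 4 lower, with a median log2 change of 0.24 in place of -0.11. Pecam1 measured 11.2, 13.8 and 12.2 RPKM in proximal tissue, against 32.4, 36.6 and 18.6 RPKM in distal tissue (adjusted p = 0.202), while Cdh5, another junction protein of endothelium, overlapped between tissues. Emcn, an endothelial sialomucin, measured 2.40, 2.95 and 3.09 RPKM in proximal tissue, against 0.255, 1.003 and 0.160 RPKM in distal tissue (adjusted p = 0.0723), and it was called higher without distal library 2 (0.0340).

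Adventitial fibroblast genes overlapped between tissues in their sum, at 743, 460.0 and 899 RPKM in proximal tissue, against 693, 720.0 and 631 RPKM in distal tissue. Of 12 lymphocyte markers, 0 were on the list analysed. Haemoglobin and platelet genes summed to 183, 11.9 and 61.6 RPKM in proximal tissue, against 59.98, 56.9 and 137 RPKM in distal tissue. The early stress genes, which respond to dissection, had a median log2 change of 0.04, with 0 of 18 called. The part of these tissues in the called genes was not tested.

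**Figure D4:**
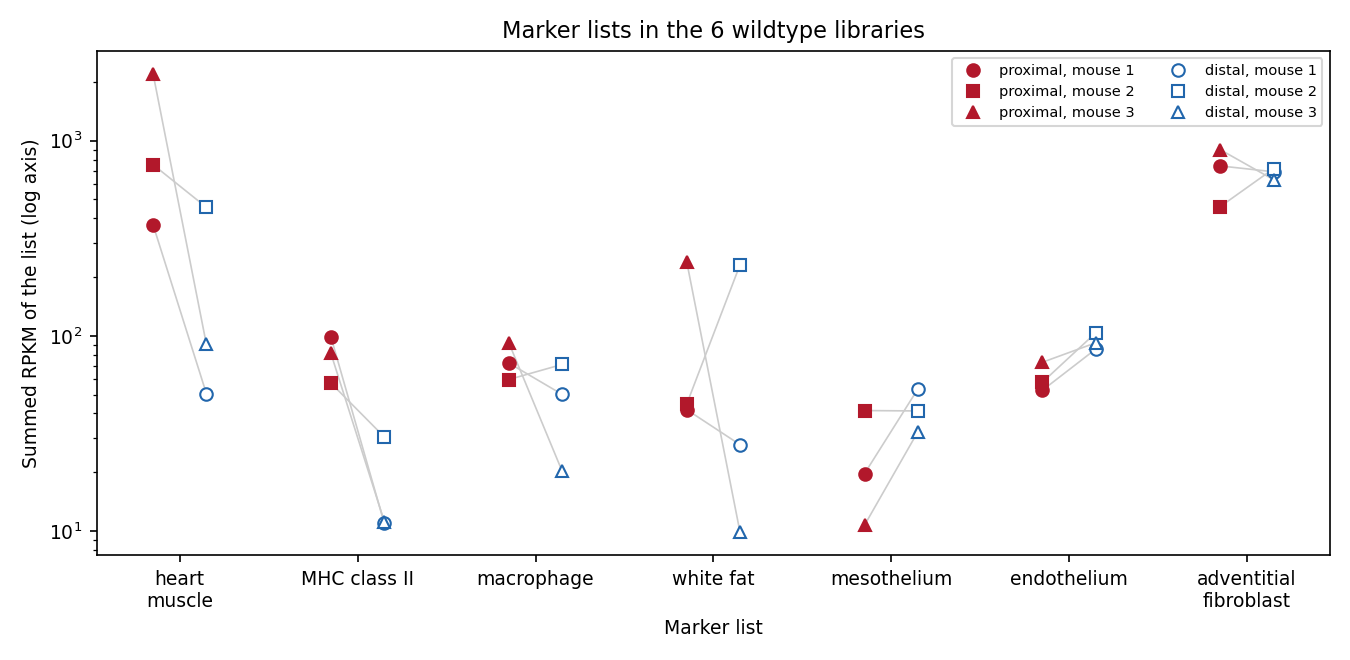
Summed RPKM (log axis) of 7 marker lists in each wildtype library, proximal left of distal, with grey lines joining the libraries of a mouse. Heart muscle spans 371 to 2206 RPKM in proximal tissue, against 50.5 to 456 RPKM in distal tissue, and white fat is high in proximal library 3 and distal library 2.

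The location difference was compared with that in the libraries labelled Notch1+/-. Notch1 measured 2.20, 1.65 and 1.63 RPKM in proximal tissue and 1.18, 1.85 and 1.51 RPKM in distal tissue of these libraries, no lower than in wildtype, so they are named by their label. In them, 46 genes (0.297%) were called between the locations, 38 higher (0.246%) and 8 lower (0.0517%) in proximal tissue. Of the 44 genes called in wildtype, 42 had a fitted change in the same direction in the libraries labelled Notch1+/-, 20 of 21 higher and 22 of 23 lower genes. Called in both were 25 genes, 19 of the higher and 6 of the lower ones. The genotypes share no control library in this comparison, but they share 1 estimate of the spread. The interaction of location and genotype, which tests the difference between the 2 changes, called 0 of 15470 genes by limma, with 444 at an unadjusted p under 0.05.

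Ptn averaged 11.3 ± 0.121 RPKM in proximal and 0.374 ± 0.215 RPKM in distal libraries labelled Notch1+/- (SD, n = 3 each), a log2 change of 3.79, against 3.77 in wildtype. Gata4 changed by 2.71 in the libraries labelled Notch1+/- and by 2.60 in wildtype, and Col8a1 by 2.11 and 2.09. Clec3a averaged 9.94 ± 1.22 RPKM in proximal libraries labelled Notch1+/- and 5.52 ± 1.07 RPKM in wildtype proximal libraries (SD, n = 3 each). Its interaction had an unadjusted p of 0.0157 and did not pass the adjustment (0.999773).

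Of the lower genes, Serpina1b, Abcc9, F3, Car8, Vtcn1 and Hhip were called in both genotypes. These genes were chosen on the wildtype values, so the sizes of the changes in the 2 genotypes are set side by side and not ranked. Serpina1b averaged 0.727 ± 0.473 RPKM in proximal and 4.92 ± 1.44 RPKM in distal libraries labelled Notch1+/- (SD, n = 3 each), a log2 change of -2.19 (adjusted p = 0.0407). Abcc9 changed by -1.22 (adjusted p = 0.0147), F3 by -1.66 (0.0166) and Car8 by -2.26 (0.0262). Vipr2 had a log2 change of -1.38 and was not called (0.0905). The 2 genes with opposite signs, Gm29332 and Gm23646, both rest on few reads in wildtype and had unadjusted interaction p of 0.000337 and 0.000104.

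**Figure D5:**
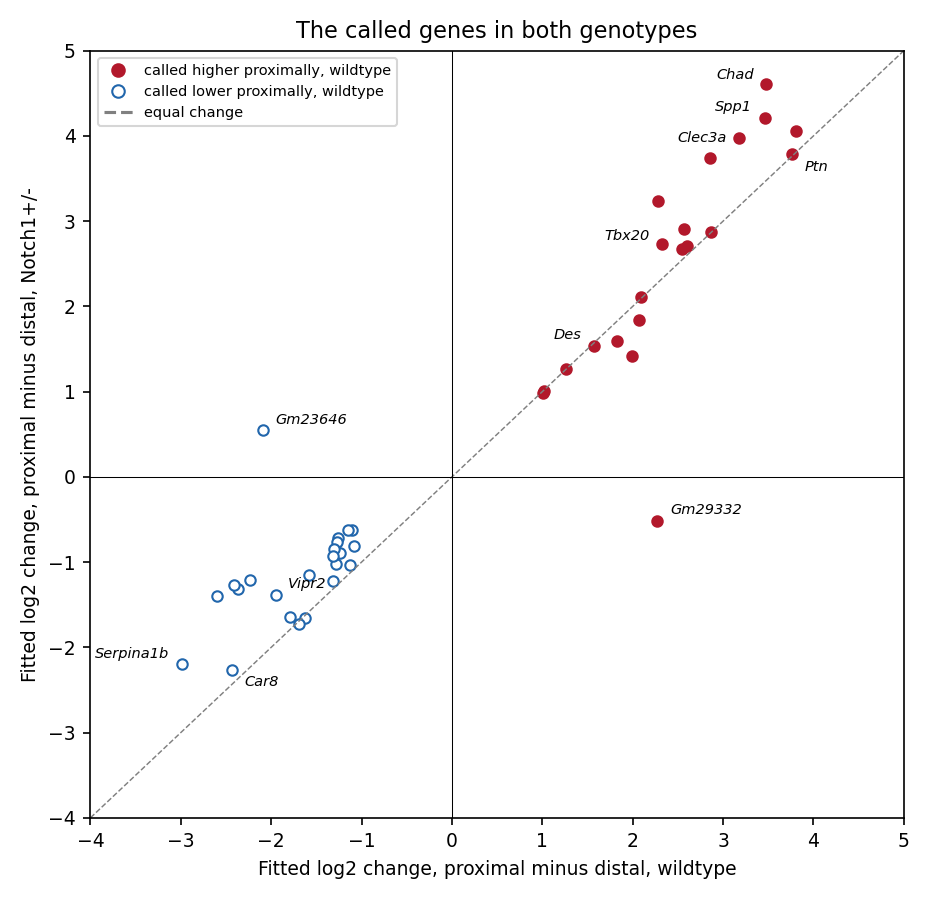
Fitted log2 change (proximal minus distal) of the 44 genes called in wildtype, in the libraries labelled Notch1+/- (vertical axis) against wildtype (horizontal axis), with genes called higher filled and genes called lower open. Of the 44 genes 42 share their direction, and Gm29332 and Gm23646 lie on the other side of zero.

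In the authors' deposited table, the Tukey comparison of wildtype proximal and distal tissue had a false discovery rate under 0.05 for 1 of the genes tested here, Clec3a (0.0306). The unadjusted p of that comparison in the authors' deposited table was under 0.05 for 1219 genes.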

How the data were processed

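RNA of 12 aortic libraries was isolated by Trizol plus purification columns, and 10 ng was amplified by NuGEN Ovation v2 chemistry and sequenced as paired reads of 50 bases, per the labels' protocols. The submitters' processing notes name mm10, TopHat2 2.1.0, Bowtie2 and R 3.2.2. No counting tool or annotation version is named there. RPKM were deposited by the authors per gene and library, with a detection threshold per library that the file gives as the RPKM of 10 reads, per the file headers. Lower levels stand in the table as 1 value, 0.158 RPKM. Ratios against replaced values are lower bounds. Beside these the authors deposited p-values and fold changes (ratios of means). Another 24 columns with values of samples, a copy and a matrix of correlations, were left out. Denominators of the RPKM, worked back from the steps of 1 read, were 14476722 to 20017786 reads, and they limit the precision of low genes. Read numbers cover counting error only, since amplified reads are not independent molecules.

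Here, genes with at least 1 RPKM in at least 3 of the 6 wildtype libraries entered a limma 3.58.1 fit (R 4.3.3) of log2(RPKM + 0.5), with a variance trend, 4 group means over 12 libraries and 8 residual degrees of freedom. The fit was tested on simulated data. Tests were 2-sided, adjusted over 15470 genes, and called under 0.05. Fitted log2 changes understate those of low genes, and folds are ratios of mean RPKM. Alternatives covered the pseudocount, the filter, 4 other scalings, single libraries left out, and the mouse as a block (4 residual degrees of freedom).

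Proximal and distal libraries with the same number came from the same mouse, per the customer numbers in the file. Their deviations from the group means correlated by 0.200, 0.0995 and 0.130 in the 3 wildtype mice. Members, lists and alternatives were chosen with earlier results of these data known. Named were up to 15 called genes per direction by fitted log2 change and the other called genes by fold. From each list came its called members and up to 4 others without overlap. Also named were abundant genes without overlap (mean of at least 50 RPKM), up to 8 uncalled genes per direction at least 2-fold apart in every mouse, and fixed tissue checks. Where space allowed only some, those with known roles are given. The results of 1 called higher transcript are not reported here.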

Additional observations from a re-analysis of the deposited data

How the results depend on the processing

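The number of genes called between proximal and distal wildtype tissue was 44, and it stayed within 1.5 times that with a pseudocount of 0.1 (42) or 1 (46), with 3 other filters on low values (36 to 41), and with 3 of the 4 other scalings (37 to 55). It moved further to 72 with RPKM rescaled to a constant sum without mitochondrially encoded genes. With the replicate block for the mouse it was 24, in wildtype libraries alone 5, and in wildtype libraries with the replicate block 1. By list, the replicate block left 2 called cardiac factors in place of 4, 3 cartilage genes in place of 4, and 0 in place of 1 among the Hox, proteoglycan and MHC class II genes and among the lower vasoactive genes, and it left 1 in place of 0 among the brown fat genes. Leaving out 1 wildtype library gave 13 to 44 calls, and leaving out both libraries of mouse 2 gave 20. The cause of these shifts was not tested, although each of the fits on fewer libraries has fewer residual degrees of freedom. The interaction of location and genotype called 0 genes in every alternative in which it was fitted. Of the single genes named, Myh11 and Cdh5 reversed, both uncalled. Myh11 had a log2 change of -0.14, which became 0.016 under median-of-ratios scaling and 8.91e-05 without proximal library 3, with -0.26 as the lowest value when 1 library was left out. Cdh5 had -0.19, which became 0.20 without distal library 2 and -0.40 without distal library 3, and 0.27 without mouse 2. Of the 44 called genes 31 were called in all 4 other scalings. Differences below 0.158 RPKM, the value in place of undetected levels, were not detectable at this depth.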

Other observations

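Of the genes at least 2-fold higher in proximal tissue of every wildtype mouse 18 of 58 were called, and of those at least 2-fold lower 21 of 87. Dio2, the deiodinase that activates thyroid hormone, measured 2.17, 1.08 and 4.93 RPKM in proximal tissue, against 8.65, 15.3 and 28.8 RPKM in distal tissue, and was lower by 3.98, 14.3 and 5.83-fold within mice 1, 2 and 3. Its log2 change was -2.51 (SE 0.47, limma adjusted p = 0.0540), and with the mouse as a block it was called (adjusted p = 0.0208). Dio2 belongs to a brown fat list whose defining gene Ucp1 measured 0.158, 0.158 and 1.29 RPKM in proximal tissue, against 1.93, 4.69 and 1.30 RPKM in distal tissue. Summed, that list reached 22.2, 25.9 and 57.5 RPKM in proximal tissue, against 23.9, 56.9 and 39.5 RPKM in distal tissue, with overlap. The transcript Gm15445, which overlaps Arl8a, measured 4.39, 3.23 and 1.71 RPKM in proximal tissue, against 1.03, 0.360 and 0.382 RPKM in distal tissue. It was not called (limma adjusted p = 0.125), but like Dio2 it was called with the mouse as a block (adjusted p = 0.0373). Gm16485, a protein-coding gene next to Pgr, measured 0.414, 0.389 and 0.301 RPKM in proximal tissue, against 2.01, 2.58 and 1.46 RPKM in distal tissue (log2 -1.51, adjusted p = 0.0533). Most of the other transcripts picked by this rule were small nuclear, nucleolar or overlapping RNAs at low levels. Gm43048, which overlaps Kcnip4, was at the replacement value in all proximal libraries, against 16.6, 4.06 and 3.71 RPKM in distal tissue (adjusted p = 0.167).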
